A study of Mus musculus with 36 samples.

Results

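Mouse duodenal organoids kept for 72 h on a microfluidic chip were compared with organoids kept there for 48 h. Every library with either duration entered, which gave 24 of the 36 libraries of the study, 12 for 72 h and 12 for 48 h. In each duration 3 libraries came from pulses of the drug DAPT every 90 min, 3 from pulses every 130 min, 3 from pulses every 170 min and 3 from the solvent DMSO, and the 4 treatments had equal weight. Messenger RNA was counted by molecule, and the 11462 genes with enough counts to be tested, of 34197 in the table, were described.

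All groups were cultures from C57BL/6 duodenum, grown from mice of either sex (the females virgin) aged over 8 weeks, and a sample held 20 to 50 whole organoids with no cell type enriched. The DAPT medium held 1.38 µM for 90 min pulses and 2 µM for 130 min pulses. For 170 min pulses the labels name 2.6 and 2 µM and do not say which sample received which. DMSO samples were the controls, and how the solvent was delivered is not given in the sources used here. Organoids for 72 h were passaged 1 day before loading and those for 48 h were passaged 2 days before. Passage to harvest therefore spanned 4 days in both durations, and a longer stay on the chip cannot be told apart from a shorter culture before it. The labels number the 3 samples of a group and do not say whether they came from separate cultures or mice, so the p-values reflect how far these samples spread, which may be technical.

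The small intestinal epithelium renews from Lgr5-positive stem cells at the base of the crypt, beside the Paneth cells that nourish them. Notch signalling decides the first choice of their daughters. A cell whose Notch receptor is cut by gamma-secretase makes the repressor HES1 and takes the absorptive path to the enterocyte. A cell that escapes the signal makes ATOH1, presents the ligands DLL1 and DLL4, and becomes a goblet, Paneth, enteroendocrine or tuft cell. DAPT blocks gamma-secretase. The study used its pulses to impose a rhythm on Notch-driven oscillations and asked, in these libraries, whether the period and the duration of pulsing shift the makeup of cell types.

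The counted molecules summed to between 610977 and 1231894 per library at 72 h and between 828506 and 1207626 at 48 h, a mean difference of -76812 (exact permutation test within treatments, two-sided, p = 0.261, adjusted over 3 library measures 0.392). The share of mitochondrially encoded molecules averaged 1.08% ± 0.14 at 72 h and 1.07% ± 0.11 at 48 h (SD, n = 12 each; same exact test, p = 0.759, adjusted 0.759). The epithelial markers Epcam, Cdh1, Krt8, Krt18, Krt19, Vil1, Cdx1 and Cdx2, and the duodenal factors Pdx1 and Gata4, had counts in all 24 libraries. Of the fibroblast markers, Dcn was at 0 in every library and Col1a1, Col1a2, Col3a1 and Pdgfra had at most 6 counts in either set of 12. Of the immune and endothelial markers, Ptprc, Cd3e, Adgre1, Cdh5 and Kdr had at most 5 counts in either set, while Pecam1 had 11 counts at 72 h and 17 at 48 h.

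Libraries differed from one another in ways the labels do not give. The first principal component of the 500 most variable genes carried 52.5% of the variance and ran from -40.0 to 21.3 at 72 h (median -1.57) and from -23.8 to 31.1 at 48 h (median 15.5). Its high end was led by the enteroendocrine hormones Sst, Gcg and Gip, with the Y-linked gene Eif2s3y close behind. The lowest values, -40.0 and -34.7, belonged to the second replicates of 130 min and of 170 min at 72 h. Those libraries had the highest mean levels of the fetal-like genes described below (7.17 and 6.82) and, with the third DMSO replicate at 48 h (5.53), the lowest of enterocyte genes (5.17 and 5.87, mean log2(CPM + 1)). Many results that rest on them, but not all, are given with and without them, a choice made after the data were seen. Both are 72 h libraries, and the third DMSO replicate at 48 h was kept. Leaving them out therefore raises the enterocyte level and lowers the fetal-like level at 72 h alone.

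The summed level of 4 Y-linked genes, Ddx3y, Eif2s3y, Kdm5d and Uty, also differed widely between libraries of the same mouse strain. It had a lowest value of 1.76, a median of 90.8 and a highest value of 370 CPM (counts scaled to a common library total) at 72 h, against 2.12, 242 and 388 CPM at 48 h. The durations overlapped, and the mean difference of -124 CPM gave p = 0.0365 in the exact permutation test within treatments, or 0.110 adjusted over the 3 library measures. The test took libraries of different treatments as independent. At 48 h the sums of 130 and 170 min went together by replicate number (2.12, 357 and 322, and 22.6, 388 and 340 CPM). At 72 h they were 1.76, 11.6 and 370, and 12.2, 5.76 and 99.6 CPM. These p-values may therefore be too small. The labels do not tie a mouse or a sex to any sample, and Xist, the transcript that marks an inactive X chromosome, had at most 2 counts in each of the 24 libraries. The Y-linked sum was chosen as a measure after the data were seen, and its values are given beside the gene groups that moved with it.

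No gene passed an adjusted p of 0.05 between 72 and 48 h in edgeR's quasi-likelihood test with Benjamini-Hochberg adjustment, averaged over the 4 treatments. The share called was thus 0% of 11462 genes, and the smallest adjusted p was 0.126. At an unadjusted p under 0.05 there were 1442 genes (12.6%), 664 of them higher (5.79%) and 778 lower (6.79%) at 72 h. Changes are given as log2 of the 72 h level over the 48 h level, so a positive value means higher at 72 h. Their median was -0.0002, their median standard error 0.11, and 5 to 95% of genes lay between -0.44 and 0.29. The 194 genes beyond 2-fold were mostly lower at 72 h, 159 against 35 higher.

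Other tools and filters gave other counts at the same threshold. DESeq2's Wald test called 9 genes, 4 higher and 5 lower at 72 h, and edgeR without a filter on low counts called 132, of which 52 were higher. The genes named below are described as higher or lower with their adjusted p in edgeR, which 0 of them passed. Of the 10 genes with the smallest p described first, 8 were among the calls of DESeq2 and 10 among those without the filter, while others named below lie far from the threshold. No gene had all 12 libraries of 72 h above, or all below, the 12 of 48 h (0% in either direction). A change above 0 was found for 49.9% of genes and one below 0 for 50.1%, and 12.3% of genes were higher and 11.6% lower at 72 h in all 4 treatments.

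The genes with the smallest p-values among those higher at 72 h were small changes in abundant epithelial genes, apart from Fgd3. Fgd3, of a family of exchange factors for the GTPase Cdc42, had a lowest value of 16.0, a median of 25.7 and a highest value of 57.2 CPM at 72 h, against 5.98, 16.1 and 26.2 CPM at 48 h (log2 1.02 ± 0.21 SE, edgeR adjusted p = 0.126). The durations overlapped as a whole, and 10 of 12 libraries at 72 h stood above the 48 h mean of their own treatment. Here and below, such counts of libraries were made only for named genes. Those genes were largely picked by small p in these same libraries, so the counts are descriptions and not separate support. At 130 min the libraries had 38.7, 57.2 and 26.1 CPM at 72 h and 18, 6.93 and 5.98 CPM at 48 h, with no overlap. In DMSO the values were 19.0, 16.0 and 30.7 CPM at 72 h and 18.8, 12.4 and 26.2 CPM at 48 h, which overlap. By treatment the log2 change of Fgd3 was 0.19 in DMSO, 0.37 at 90 min, 1.97 at 130 min and 1.53 at 170 min.

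Tspan15, a tetraspanin that escorts the membrane protease ADAM10, had 185, 201 and 218 CPM (lowest, median, highest) at 72 h and 114, 159 and 201 CPM at 48 h (log2 0.33 ± 0.07 SE, edgeR adjusted p = 0.141). All 12 libraries at 72 h lay above the 48 h mean of their treatment, and the spread was narrower at 72 h, 202 ± 9.5 CPM, than at 48 h, 161 ± 24.9 CPM (SD, n = 12 each). Its log2 change ran from 0.26 in DMSO to 0.42 at 170 min, with 0.27 at 90 min and 0.36 at 130 min, the most even across treatments of the 5.

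Mal2, a membrane protein of apical transport in epithelial cells, had 371, 429 and 507 CPM (lowest, median, highest) at 72 h and 300, 353 and 415 CPM at 48 h (log2 0.28 ± 0.06 SE, edgeR adjusted p = 0.126). Serpinb1a, an inhibitor of neutrophil proteases, had 374, 427 and 514 CPM at 72 h and 303, 358 and 400 CPM at 48 h (log2 0.29 ± 0.07 SE, edgeR adjusted p = 0.141). Krt8, a keratin of simple epithelia, had 323, 370 and 478 CPM at 72 h and 250, 311 and 372 CPM at 48 h (log2 0.34 ± 0.08 SE, edgeR adjusted p = 0.148). For each of the 3 genes all 12 libraries at 72 h exceeded the 48 h mean of their treatment, and the full ranges of the durations overlapped.

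**Figure D1:**
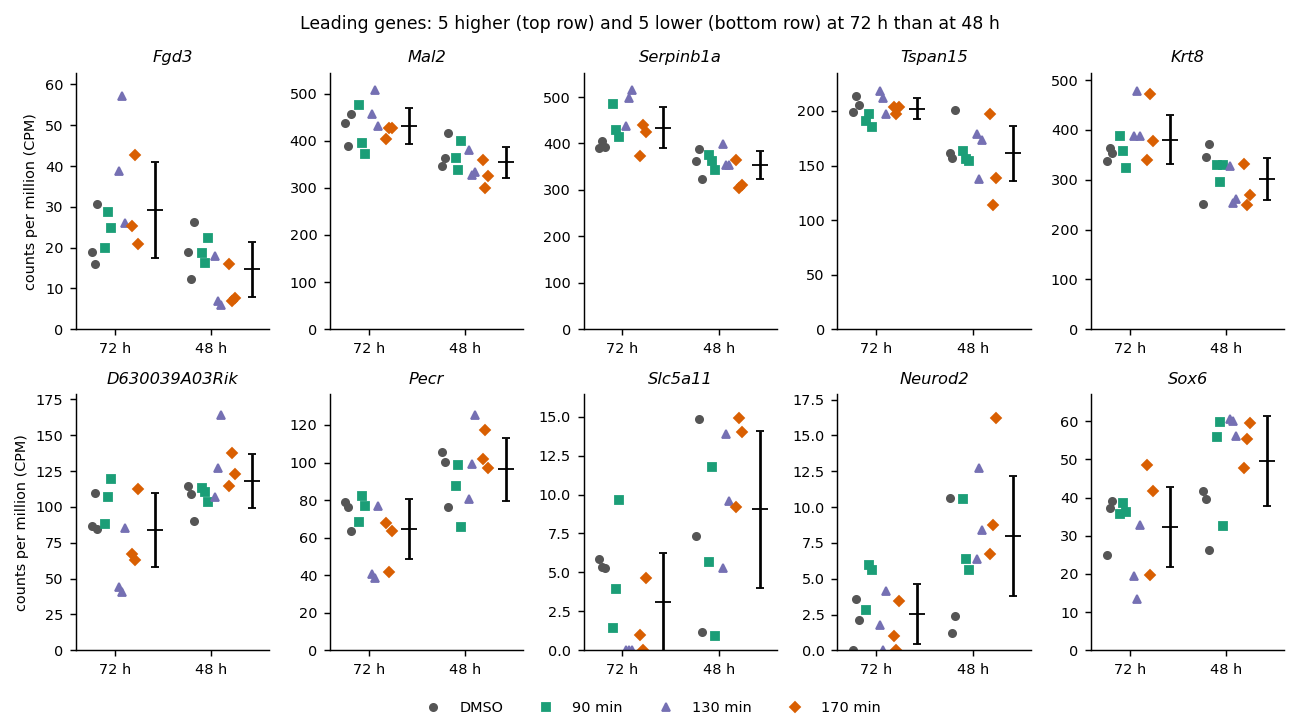
Level in CPM (vertical axis, from 0) of the 5 higher and 5 lower genes with the smallest p-values, by library, 72 h left and 48 h right; symbols mark the treatment and bars the mean ± SD of 12 libraries. Tspan15 sits between 185 and 218 CPM at 72 h and between 114 and 201 CPM at 48 h, and Slc5a11 is at 0 in the 130 min libraries at 72 h.

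Among the genes lower at 72 h, Pecr, a peroxisomal enoyl-CoA reductase of fatty acid metabolism, had 38.8, 68.1 and 82.1 CPM (lowest, median, highest) at 72 h and 65.9, 99.0 and 126 CPM at 48 h (log2 -0.60 ± 0.12 SE, edgeR adjusted p = 0.126). All 12 libraries at 72 h lay below the 48 h mean of their treatment. The change was -0.38 in DMSO, -0.14 at 90 min, -0.97 at 130 min and -0.89 at 170 min.

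D630039A03Rik, for which the table gives no name beyond its clone, had 40.7, 85.7 and 120 CPM at 72 h and 90.4, 114 and 164 CPM at 48 h (log2 -0.52 ± 0.11 SE, edgeR adjusted p = 0.126). Sox6, a SOX family transcription factor, had 13.6, 35.8 and 48.6 CPM at 72 h and 26.2, 55.6 and 60.4 CPM at 48 h (log2 -0.63 ± 0.14 SE, edgeR adjusted p = 0.141). Both differed most at 130 min, D630039A03Rik by -1.24 and Sox6 by -1.45, and least in DMSO or at 90 min, where D630039A03Rik was at -0.16 and -0.04 and Sox6 at -0.07 and -0.43. Their durations overlapped.

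Slc5a11, a sodium-coupled inositol transporter, had 0, 2.69 and 9.62 CPM (lowest, median, highest) at 72 h and 0.929, 9.39 and 14.9 CPM at 48 h. The 3 libraries of 130 min at 72 h held 0 counts of it, against 25 counts in the 3 at 48 h, which is at least 7.44-fold lower with a floor of 3 counts over the group. Its averaged log2 change was -2.42 ± 0.53 SE as fitted (edgeR adjusted p = 0.141) and -1.59 with 130 min set at that bound. Neurod2, a basic helix-loop-helix factor known from neurons, had 0, 2.48 and 5.93 CPM at 72 h and 1.24, 7.53 and 16.2 CPM at 48 h (log2 -1.74 ± 0.39 SE, edgeR adjusted p = 0.141). Its counts were few, 29 over all libraries at 72 h and 99 at 48 h, and the durations overlapped.

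The direction of change differed with the level of a gene. Of 3545 genes averaging at least 100 CPM, 369 were higher and 67 lower at 72 h at an unadjusted p under 0.05, with a median log2 change of 0.05. Of 6884 genes between 10 and 100 CPM, 253 were higher and 588 lower (median -0.03), and of 1033 genes under 10 CPM, 42 were higher and 123 lower (median -0.12). With the library total as a covariate the counts for the most abundant genes were 239 higher and 115 lower, with a median of 0.02. Without the pair of libraries that stood apart they were 398 and 40. The mean total was lower at 72 h, and its part in this pattern was tested only through that covariate.

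**Figure D2:**
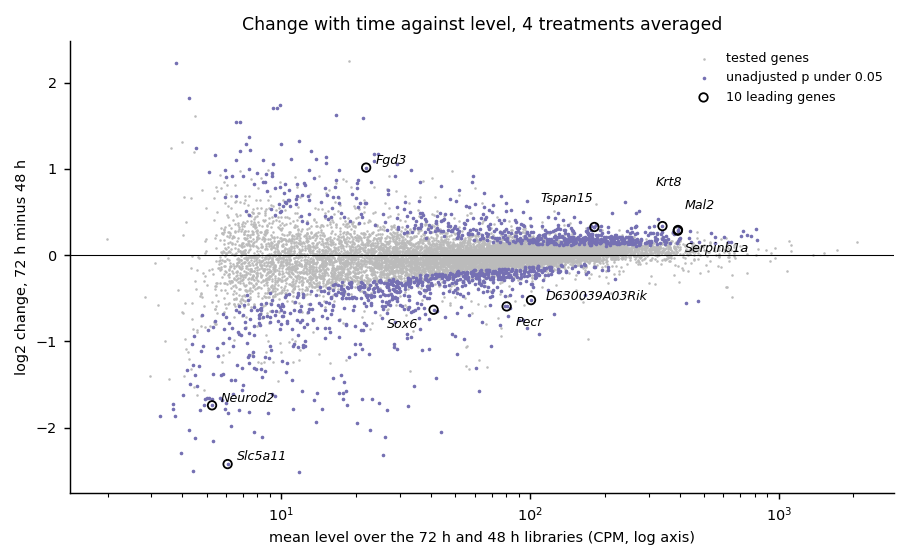
Log2 change between 72 and 48 h (vertical axis) against the mean level over the 24 libraries in CPM (log axis); each point is 1 of 11462 genes, with 1442 genes at an unadjusted p under 0.05 in colour and the 10 leading genes ringed. Coloured points at 100 CPM and above are mostly higher at 72 h, 369 against 67 lower, and below that level mostly lower.

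Gene groups are described by lists of known genes, 47 in all, of which 45 had a tested member and 0 had a member past the threshold. For each list the number of tested members at an unadjusted p under 0.05 is read against 5.79% of all genes higher and 6.79% lower. Those shares are not matched for level: at 100 CPM and above 369 of 3545 genes were higher and 67 lower. Among abundant genes the share higher is thus larger than 5.79%, and no list was compared with genes of like level. In whole organoids fewer cells of a type and less RNA of that type per cell cannot be told apart.

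The Notch pathway list had a median near 0. Hes1, the main Notch target of the crypt, had 274, 327 and 382 CPM (lowest, median, highest) at 72 h and 274, 335 and 408 CPM at 48 h. The 95% interval of its log2 change ran from -0.13 to 0.14, and 6 of 12 libraries at 72 h were above the 48 h mean of their treatment. Of 16 tested pathway genes 1 was higher and 2 lower at an unadjusted p under 0.05, with a median of 0.01 that changed sign in 29 of 44 other settings. Jag2, a Notch ligand, had 48.0, 65.9 and 104 CPM at 72 h and 31.3, 38.2 and 76.2 CPM at 48 h (log2 0.56 ± 0.15 SE, edgeR adjusted p = 0.195). Rbpj, the DNA-binding partner of cleaved Notch, had 47.5, 55.6 and 66.6 CPM at 72 h and 58.2, 66.2 and 83.5 CPM at 48 h (log2 -0.27 ± 0.08 SE, edgeR adjusted p = 0.205). Jag2 was above its treatment's 48 h mean in 11 of 12 libraries and Rbpj below it in 12 of 12.

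Of 17 secretory transcription factors 14 lay below 0. They include Neurod1, which also counts among the enteroendocrine genes below. Atoh1, which commits cells to the secretory fate, had 58.1, 93.8 and 116 CPM at 72 h and 88.0, 107 and 154 CPM at 48 h (log2 -0.34 ± 0.10 SE, edgeR adjusted p = 0.238). It was below its treatment's 48 h mean in 11 of 12 libraries, with changes of -0.18 in DMSO, -0.03 at 90 min, -0.73 at 130 min and -0.40 at 170 min. Of the Notch ligands that ATOH1-positive cells present, Dll1 was at -0.29 ± 0.11 SE (edgeR adjusted p = 0.305). Dll4 was at -0.20 ± 0.12 SE (edgeR adjusted p = 0.471), with 0.22 in DMSO and -0.41 at 90 min, and was not past an unadjusted p of 0.05. Foxa3, a factor of goblet and other secretory cells, was below its treatment's 48 h mean in 12 of 12 libraries, with 44.0, 66.5 and 75.0 CPM at 72 h and 57.9, 77.5 and 94.6 CPM at 48 h (log2 -0.28 ± 0.08 SE, edgeR adjusted p = 0.238). Of these factors 6 were lower and 0 higher at an unadjusted p under 0.05, the median was -0.23, and 6 were lower in all 4 treatments, against 11.6% of all genes. Without the pair of libraries that stood apart the median was -0.31 with 7 of 18 lower, and with the Y-linked level as a covariate it was -0.22 with 5 of 17 lower.

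Enteroendocrine genes, of the rare hormone-making cells of the epithelium, had the list median farthest from 0 among the 45 lists. Of 31 tested genes 15 were lower and 1 higher at an unadjusted p under 0.05, 26 lay below 0, 19 were lower in all 4 treatments, and the median was -1.03. Neurod1, a factor of early and mature enteroendocrine cells, had 0, 7.51 and 32.9 CPM (lowest, median, highest) at 72 h and 1.19, 46.5 and 87.5 CPM at 48 h (log2 -2.31 ± 0.69 SE, edgeR adjusted p = 0.238). Rfx6, another factor of the lineage, had 0, 3.74 and 7.91 CPM at 72 h and 2.12, 9.82 and 21.0 CPM at 48 h (log2 -1.57 ± 0.43 SE, edgeR adjusted p = 0.195). Chga, a granule protein of most of these cells, had 2.47, 37.7 and 167 CPM at 72 h and 0, 88.1 and 170 CPM at 48 h (log2 -1.22 ± 0.65 SE, edgeR adjusted p = 0.431). Libraries with almost no Chga occurred at both durations, so the ranges overlapped fully.

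Of the hormone genes, 4 are named here after their values were seen. The first 3 are also the genes that led the first principal component. Sst, the somatostatin gene, averaged 24.3 CPM at 72 h and 63.7 CPM at 48 h (log2 -2.05 ± 0.86 SE, edgeR adjusted p = 0.357). Gip averaged 19.1 CPM at 72 h and 49.3 CPM at 48 h (log2 -1.52 ± 0.74 SE, edgeR adjusted p = 0.394), and Gcg, the gene of glucagon-like peptides, 15.7 CPM at 72 h and 33.7 CPM at 48 h (log2 -1.72 ± 0.83 SE, edgeR adjusted p = 0.393). Nts, the neurotensin gene, went the other way, with 10.6 CPM at 72 h and 4.25 CPM at 48 h (log2 1.37 ± 0.50 SE, edgeR adjusted p = 0.305), and was the 1 member higher at an unadjusted p under 0.05.

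Among the 24 libraries compared, the enteroendocrine level ran alongside the Y-linked level, library by library. In DMSO the Y-linked sum was 133, 106 and 7.40 CPM at 72 h and 323, 202 and 63.1 CPM at 48 h, in order of replicate number, and Chga was 38.1, 37.4 and 6.34 CPM at 72 h and 127, 69.4 and 22.6 CPM at 48 h. At 130 min the sum was 1.76, 11.6 and 370 CPM at 72 h and 2.12, 357 and 322 CPM at 48 h, while Chga was 3.52, 3.88 and 167 CPM at 72 h and 0, 170 and 132 CPM at 48 h. The same libraries were thus low in both, at either duration. Across treatments, 7 libraries had a Y-linked sum under 25 CPM, 5 at 72 h and 2 at 48 h, and their mean enteroendocrine level ran from 2.49 to 3.20 on the log2(CPM + 1) scale. The other 17, 7 at 72 h and 10 at 48 h, ran from 3.31 to 5.75, with medians of 4.42 at 72 h and 5.30 at 48 h. At 24 h, outside this comparison, the relation did not always hold. The third replicates of 130 and 170 min had Y-linked sums of 1.68 and 4.03 CPM but enteroendocrine levels of 5.04 and 5.34. Their Xist counts were 56 and 140. The first replicates of those treatments, with 3.21 and 19.5 CPM, were at 2.815 and 2.95.

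With the log2 Y-linked sum as a covariate the enteroendocrine median was -0.55 and 4 of 31 genes were lower at an unadjusted p under 0.05, and with the sum itself it was -0.29 with 2 lower. Without the pair of libraries that stood apart the median was -0.72 with 6 of 32 lower. Same-numbered libraries of 130 and 170 min deviated together, and with them summed the median was -1.03 with 6 of 31 lower. By treatment it was -1.33 in DMSO, -0.18 at 90 min, -0.56 at 130 min and -1.70 at 170 min. The mean Y-linked level was lower at 72 h, with an adjusted p of 0.110 in the exact permutation test and overlapping durations. Its part in the enteroendocrine difference was tested only through these covariates. Their slopes were fitted over all 36 libraries. The 24 h libraries, where the relation did not always hold, thus bear on the medians given with a covariate.

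**Figure D3:**
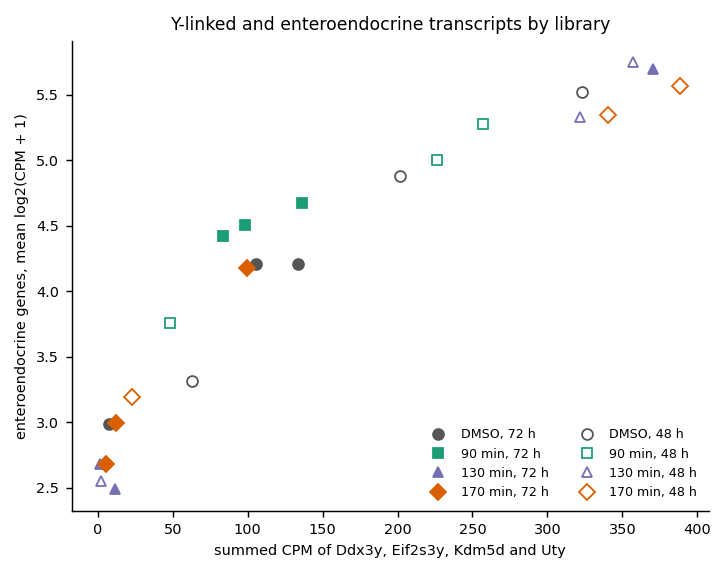
Mean log2(CPM + 1) of 31 enteroendocrine genes (vertical axis) against the summed level of 4 Y-linked genes in CPM (horizontal axis), 1 point per library, filled for 72 h and open for 48 h. Libraries under 25 CPM of the Y-linked sum lie between 2.49 and 3.20 at both durations, below the other 17.

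The remaining lineages had smaller medians. Goblet cell genes stood at -0.03 over 34 genes, 1 higher and 6 lower at an unadjusted p under 0.05, and Muc2, the main mucin, had 292, 466 and 556 CPM (lowest, median, highest) at 72 h and 249, 460 and 511 CPM at 48 h, with an interval of the log2 change from -0.24 to 0.27. Galnt12, an enzyme that starts mucin glycans, was lower, with 45.7, 65.5 and 97.0 CPM at 72 h and 63.1, 83.6 and 99.2 CPM at 48 h (log2 -0.28 ± 0.08 SE, edgeR adjusted p = 0.238). Tuft cell genes had a median of -0.22 over 15 genes, 2 of them lower. It was -0.13 without the pair of libraries that stood apart and -0.15 with the log2 Y-linked covariate, each with 0 lower. The tuft kinase Dclk1 had 0.822, 3.18 and 27.4 CPM at 72 h and 2.12, 9.43 and 23.7 CPM at 48 h (log2 -1.18 ± 0.51 SE, edgeR adjusted p = 0.359). For Muc2, Galnt12 and Dclk1 the durations overlapped.

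The stem and Paneth cell lists had medians above 0 in DMSO and at 90 min and below 0 at 130 and 170 min. Lgr5, the receptor that marks crypt stem cells, had 60.9, 143 and 195 CPM at 72 h and 122, 167 and 208 CPM at 48 h (log2 -0.28 ± 0.15 SE, edgeR adjusted p = 0.430), and Olfm4, a secreted stem cell marker, 76.5, 658 and 860 CPM at 72 h and 374, 774 and 983 CPM at 48 h. Olfm4 was at -0.23 ± 0.28 SE (edgeR adjusted p = 0.762), and without the pair of libraries that stood apart Olfm4 was at 0.01 and Lgr5 at -0.12. The stem cell list had a median of -0.09 with 2 of 23 lower, and -0.02 without that pair. Sp5, a Wnt target, had 3.17, 11.1 and 32.9 CPM at 72 h and 11.9, 25.6 and 43.8 CPM at 48 h (log2 -1.03 ± 0.36 SE, edgeR adjusted p = 0.299). Wnt3, the Wnt ligand that Paneth cells make, had 10.7, 20.9 and 34.6 CPM at 72 h and 19.5, 31.9 and 45.6 CPM at 48 h (log2 -0.59 ± 0.14 SE, edgeR adjusted p = 0.164).

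Lyz1, the Paneth lysozyme, had 179, 591 and 1232 CPM at 72 h and 353, 771 and 1289 CPM at 48 h (log2 -0.49 ± 0.31 SE, edgeR adjusted p = 0.507), and was at -0.31 without that pair. The Paneth list had a median of -0.14, from 0.03 in DMSO and 0.43 at 90 min to -0.50 at 130 min and -0.71 at 170 min, with 2 of 19 genes lower and 0 higher. Defa22 led it after Wnt3 at -0.61 ± 0.27 SE (edgeR adjusted p = 0.364), a value that is uncertain because near-identical alpha-defensin genes can share reads.

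Enterocyte genes had a median of -0.17 over 53 genes, 1 higher and 7 lower, beside 5.79% and 6.79% of all genes. The brush-border phosphatase Alpi had 348, 647 and 761 CPM at 72 h and 311, 595 and 790 CPM at 48 h (95% interval of the log2 change from -0.18 to 0.30). Cd36, a fatty acid transporter, had 0, 6.70 and 32.9 CPM at 72 h and 1.19, 26.0 and 38.6 CPM at 48 h (log2 -1.60 ± 0.48 SE, edgeR adjusted p = 0.238). Apoa4, an apolipoprotein of chylomicrons, had 0, 29.0 and 48.1 CPM at 72 h and 7.14, 60.1 and 80.7 CPM at 48 h (log2 -1.09 ± 0.40 SE, edgeR adjusted p = 0.305). Both were below their treatment's 48 h mean in 11 of 12 libraries.

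Enpep, a brush-border peptidase, had 2.91, 28.3 and 75.4 CPM at 72 h and 7.14, 107 and 161 CPM at 48 h (log2 -1.57 ± 0.49 SE, edgeR adjusted p = 0.249), and was below that mean in 12 of 12. Fabp1, a fatty acid carrier, had 31.0, 229 and 264 CPM at 72 h and 73.8, 306 and 417 CPM at 48 h (log2 -0.47 ± 0.24 SE, edgeR adjusted p = 0.414), and was at -0.31 without the pair that stood apart. The enterocyte list stood at 0.16 in DMSO, 0.09 at 90 min, -0.52 at 130 min and -0.44 at 170 min, and without the pair of libraries that stood apart its median was -0.01 with 3 higher and 3 lower. Antimicrobial genes of young enterocytes had a median of -0.17 with 3 of 15 lower, and of -0.07 with 1 of 16 lower without that pair. Reg3b, a secreted lectin, had 8.72, 45.7 and 94.3 CPM at 72 h and 8.33, 117 and 142 CPM at 48 h (log2 -1.05 ± 0.37 SE, edgeR adjusted p = 0.300). Both lists turned sign without the second replicates of all groups.

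Proliferation genes had medians near 0. Mki67, made by cycling cells, had 184, 212 and 267 CPM at 72 h and 192, 214 and 238 CPM at 48 h, with an interval of the log2 change from -0.10 to 0.15. The S phase list stood at -0.02 over 49 genes and the G2 and M phase list at 0.03 over 52, with 1 and 3 genes higher and 2 and 0 lower at an unadjusted p under 0.05.

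Genes of the fetal-like state, a programme that intestinal epithelium takes up after injury and that includes targets of the mechanical sensor YAP, were higher at 72 h on balance. Of 37 tested genes 14 were higher and 0 lower at an unadjusted p under 0.05, beside 5.79% and 6.79% of all genes, 31 lay above 0, and the median was 0.27. Clu, a marker of revival stem cells, had 215, 307 and 626 CPM (lowest, median, highest) at 72 h and 131, 231 and 338 CPM at 48 h (log2 0.51 ± 0.19 SE, edgeR adjusted p = 0.305). Anxa2, an annexin that binds membranes, had 279, 320 and 481 CPM at 72 h and 237, 296 and 336 CPM at 48 h (log2 0.26 ± 0.08 SE, edgeR adjusted p = 0.269). S100a10, its partner, had 293, 357 and 435 CPM at 72 h and 270, 319 and 332 CPM at 48 h (log2 0.19 ± 0.06 SE, edgeR adjusted p = 0.264). Without the pair of libraries that stood apart Clu was at 0.32 and Anxa2 at 0.16. Durations overlapped for all 3, and Clu was highest, at 626 CPM, in the second replicate of 130 min at 72 h. Ly6a, a surface marker of the fetal-like state named after its value was seen, averaged 292 CPM at 72 h and 188 CPM at 48 h (log2 0.62 ± 0.21 SE, edgeR adjusted p = 0.299).

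The fetal-like difference was not shared by all treatments. Its list median was -0.25 in DMSO, 0.16 at 90 min, 0.72 at 130 min and 0.47 at 170 min. Per library, the mean level in DMSO was 5.96, 6.01 and 6.09 at 72 h and 6.45, 6.08 and 6.5 at 48 h, overlapping only through 6.09 at 72 h and 6.08 at 48 h. At 130 min it was 6.34, 7.17 and 6.76 at 72 h and 6.32, 5.70 and 6.07 at 48 h, with no overlap (mean log2(CPM + 1)). Without the pair of libraries that stood apart the median over treatments was 0.17 with 6 of 37 higher, and with the log2 Y-linked level as a covariate it was 0.21 with 10 higher.

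Targets of p53, the factor that answers DNA damage and other stress, were also higher on balance, 12 of 31 and 1 lower at an unadjusted p under 0.05, with a median of 0.18. By treatment that median was -0.03 in DMSO, 0.06 at 90 min, 0.41 at 130 min and 0.18 at 170 min. Cdkn1a, the cell cycle inhibitor p21, had 207, 296 and 424 CPM at 72 h and 184, 225 and 339 CPM at 48 h (log2 0.33 ± 0.12 SE, edgeR adjusted p = 0.299). Zmat3, an RNA-binding target, had 56.1, 69.4 and 104 CPM at 72 h and 37.1, 53.5 and 84.5 CPM at 48 h (log2 0.43 ± 0.13 SE, edgeR adjusted p = 0.205), and Ccng1, a cyclin, 227, 285 and 371 CPM at 72 h and 226, 239 and 296 CPM at 48 h (log2 0.26 ± 0.08 SE, edgeR adjusted p = 0.227). Cdkn1a differed by 0.23 to 0.50 in every treatment, whereas Zmat3 was at -0.04 in DMSO and 0.90 at 130 min. The list stood at 0.10 with 5 of 31 higher without the pair of libraries that stood apart, and at 0.13 with 5 higher with the log2 Y-linked covariate. Genes such as Cdkn1a and Krt19 belong to more than 1 list, so the groups are not independent. Neurod1 is in the secretory factor and enteroendocrine lists, Atoh1 in the secretory factor and goblet lists, and Sp5 in the stem cell and Wnt lists.

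**Figure D4:**
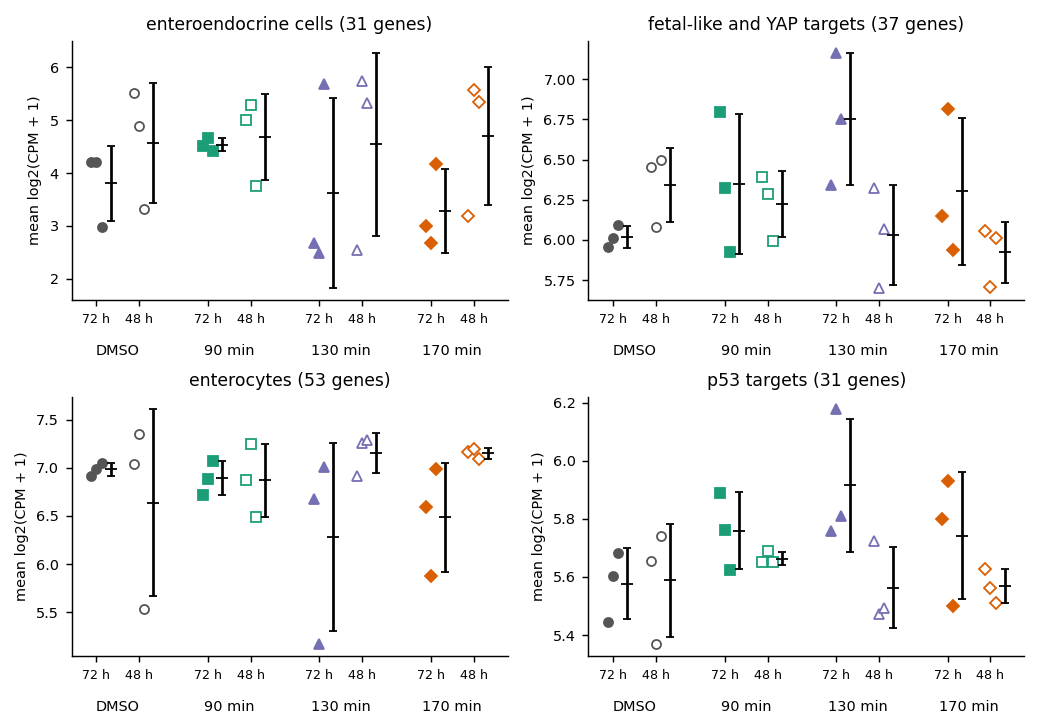
Mean log2(CPM + 1) over the tested genes of 4 lists by library, with 72 h (filled) left of 48 h (open) in each treatment and bars for the mean ± SD of 3 libraries. Enteroendocrine levels spread from 2.49 to 5.75, and at 130 min the fetal-like levels of 6.34, 7.17 and 6.76 at 72 h lie above 6.32, 5.70 and 6.07 at 48 h.

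Some further stress and inflammatory lists leaned the same way with small medians, and others did not. The interferon response had 0 of 33 genes higher and 2 lower, with a median of -0.04. The unfolded protein response stood at 0.03 with 3 of 29 higher and 1 lower. Heat shock genes stood at 0.04 with 3 of 20 higher and 0 lower. The integrated stress response, run by the factor ATF4, had 6 of 34 genes higher and 0 lower at an unadjusted p under 0.05, 31 above 0, 16 higher in all 4 treatments beside 12.3% of all genes, and a median of 0.14, or 0.19 with 8 higher without the pair that stood apart and 0.07 with 2 higher with the log2 Y-linked covariate. Slc7a11, its cystine transporter, had 133, 167 and 280 CPM at 72 h and 99.2, 137 and 178 CPM at 48 h (log2 0.39 ± 0.14 SE, edgeR adjusted p = 0.299). NF-kB and inflammatory genes had 5 of 27 higher and 0 lower, with a median of 0.12. By treatment that median was -0.03 in DMSO, 0.10 at 90 min, 0.32 at 130 min and 0.20 at 170 min. Averaged over treatments it was 0.09 with 2 of 28 higher without that pair, and 0.05 with 2 of 27 higher with the log2 Y-linked covariate. Ier3, an early response gene, had 49.8, 67.5 and 135 CPM at 72 h and 30.0, 52.4 and 71.4 CPM at 48 h (log2 0.55 ± 0.17 SE, edgeR adjusted p = 0.249). The pair of libraries that stood apart had the highest Ier3 counts at 72 h, 139 and 138. Slc7a11 and Ier3 overlapped between durations.

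Antioxidant and detoxifying genes under the factor NRF2 had 11 of 40 higher and 0 lower, with a median of 0.09 that was 0.12 with 10 higher without the pair of libraries that stood apart and 0.08 with 8 higher with the log2 Y-linked covariate. Gsta3, a glutathione transferase, had 233, 282 and 327 CPM at 72 h and 167, 237 and 297 CPM at 48 h (log2 0.27 ± 0.07 SE, edgeR adjusted p = 0.195), although reads of close Gsta relatives could be shared. Me1, the malic enzyme that makes NADPH, had 129, 149 and 184 CPM at 72 h and 96.4, 120 and 155 CPM at 48 h (log2 0.29 ± 0.07 SE, edgeR adjusted p = 0.194). Both were above their treatment's 48 h mean in 12 of 12 libraries, as was Plin2, a lipid droplet protein, with 105, 128 and 176 CPM at 72 h and 92.0, 110 and 118 CPM at 48 h (log2 0.27 ± 0.06 SE, edgeR adjusted p = 0.148).

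Cytoskeletal, folding and respiratory lists had medians of at most 0.13. Of 40 actin cytoskeleton genes 11 were higher and 3 lower, with a median of 0.13 and a range from -1.98 to 0.57, and Dbn1, an actin-binding drebrin, was among the lower with 0, 2.71 and 7.32 CPM at 72 h and 1.06, 10.4 and 17.3 CPM at 48 h (log2 -1.98 ± 0.57 SE, edgeR adjusted p = 0.205). All 8 subunits of the CCT chaperonin, the machine that folds actin and tubulin, lay above 0, with 4 higher at an unadjusted p under 0.05 and a median of 0.11. Cct5 had 193, 232 and 315 CPM at 72 h and 166, 203 and 246 CPM at 48 h (log2 0.20 ± 0.08 SE, edgeR adjusted p = 0.310). With the log2 Y-linked covariate 6 of the 40 actin genes were higher, with a median of 0.10, and 0 of the 8 subunits, also with a median of 0.10. With the same-numbered libraries of 130 and 170 min summed, 1 of the 8 subunits was higher. Of 75 nuclear genes of the respiratory chain 66 lay above 0 and 7 were higher, with a median of 0.06. Of all genes at 100 CPM and above, 369 of 3545 were higher, with a median of 0.05, so the list lay near that share. The respiratory median was 0.02 with 2 higher with the library total as a covariate, and 0.06 with 2 higher with the log2 Y-linked covariate. Cyc1, cytochrome c1, had 211, 274 and 299 CPM at 72 h and 188, 230 and 278 CPM at 48 h (log2 0.21 ± 0.08 SE, edgeR adjusted p = 0.300).

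Junction genes had 2 of 30 higher, near the 5.79% of all genes, with a median of 0.10. They were led by Ppl, the desmosomal linker periplakin, with 66.7, 82.7 and 128 CPM at 72 h and 51.4, 67.6 and 90.4 CPM at 48 h (log2 0.41 ± 0.11 SE, edgeR adjusted p = 0.195). Of the drug-metabolising enzymes 6 of 50 were higher and 2 lower, but 29 lay below 0 and the median was -0.05. By treatment that median was 0.31 in DMSO, 0.08 at 90 min, -0.33 at 130 min and -0.18 at 170 min. Without the pair of libraries that stood apart the averaged median was 0.04. Cyp2c55, a cytochrome P450, had 252, 363 and 560 CPM at 72 h and 99.9, 286 and 399 CPM at 48 h (log2 0.42 ± 0.12 SE, edgeR adjusted p = 0.195), with its largest change, 0.82, in DMSO. There the third replicate at 48 h, also low in enterocyte genes, had 84 counts, against 229 and 213 in the first and second. Cyp4v3, another P450, had 15.5, 84.4 and 121 CPM at 72 h and 34.5, 158 and 192 CPM at 48 h (log2 -0.91 ± 0.27 SE, edgeR adjusted p = 0.238), and was below its treatment's 48 h mean in 12 of 12 libraries. Epcam, the general epithelial marker, had 365, 411 and 483 CPM at 72 h and 381, 417 and 508 CPM at 48 h (interval of the log2 change from -0.16 to 0.10).

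Taken treatment by treatment, 3 libraries against 3, no gene passed an adjusted p of 0.05 in edgeR's test in any of the 4 treatments (0% each). At an unadjusted p under 0.05 there were 312 genes in DMSO (2.72%), 204 at 90 min (1.78%), 1065 at 130 min (9.29%) and 905 at 170 min (7.9%). The smallest adjusted p was 0.0969 at 130 min, for D630039A03Rik, and 0.596 at 170 min, where Nr1d2, a repressor of the circadian clock, had the smallest p. Nr1d2 had 97.0, 121 and 145 CPM over all 72 h libraries and 120, 137 and 180 CPM over those of 48 h (averaged log2 -0.20 ± 0.06 SE, edgeR adjusted p = 0.245).

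The difference of the change between treatments was tested directly. No gene passed an adjusted p of 0.05 for the change in the 3 pulse treatments minus that in DMSO (0%; 418 genes or 3.65% unadjusted, smallest edgeR adjusted p 1.00), nor for any difference among the 4 treatments (0%; 311 or 2.71% unadjusted, smallest edgeR adjusted p 1.00). Slc4a11, a membrane transporter, had the smallest p of the first test, with changes of -1.15 in DMSO, 0.47 at 90 min, 2.25 at 130 min and 3.25 at 170 min. Its counts at 72 h were 8, 53 and 13 at 130 min and 17, 39 and 5 at 170 min. The highest in each treatment came from the pair of libraries that stood apart. Asah2, the neutral ceramidase of the brush border, had the smallest p of the second, with changes of 0.60 in DMSO, 0.19 at 90 min, -0.87 at 130 min and -0.34 at 170 min. List medians that differ in sign between treatments are therefore descriptions, since no gene was shown to differ in its change between treatments.

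**Figure D5:**
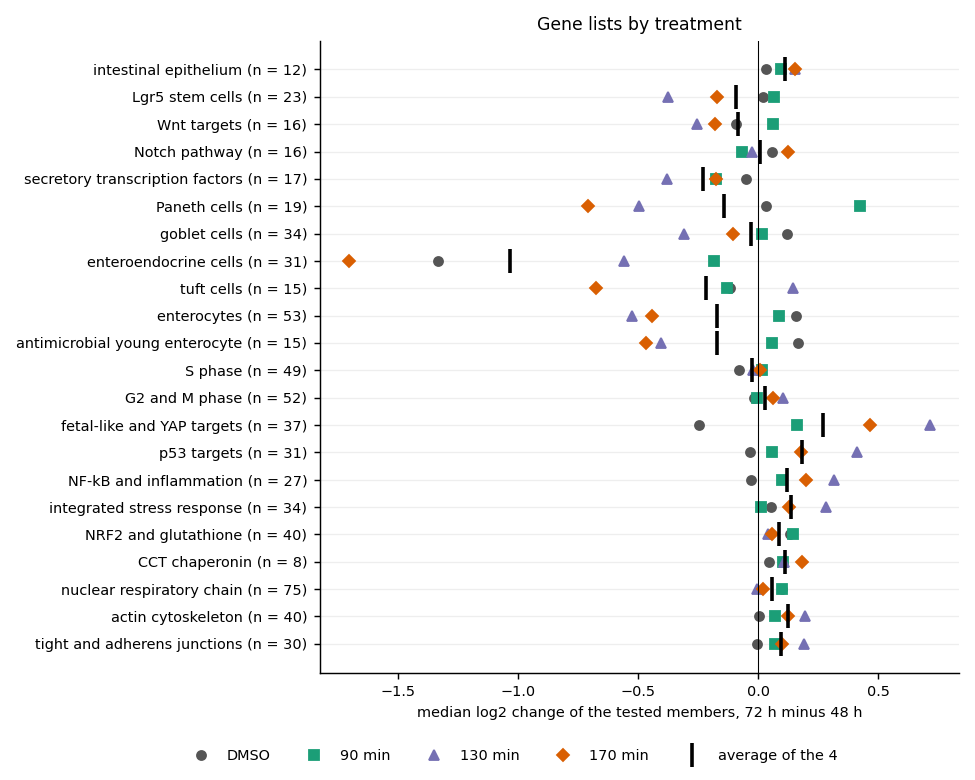
Median log2 change between 72 and 48 h over the tested genes of 22 lists (rows, with the number of genes), by treatment (symbols) and averaged over the 4 treatments (black bars). The enteroendocrine list lies between -1.70 and -0.18 and the fetal-like list between -0.25 and 0.72.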

How the data were processed

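The deposited table holds whole-number UMI counts per gene symbol for 36 libraries, made with the Sort-seq method per the labels' protocols. The submitters' processing notes name STAR 2.7.8a and UMI-tools 1.1.1. Which build and annotation the reads were aligned to, how long the UMIs were and whether strand was used is not given in the sources used here. Hence no coordinates are reported and antisense or overlapping genes cannot be told apart. All 36 columns matched 1 sample each and 0 were left over.

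Genes were tested with edgeR 4.0.16 in R 4.3.3: filterByExpr kept 11462 genes and left out 22735, with TMM scaling, 1 coefficient for each of 12 groups (24 residual degrees of freedom, biological coefficient of variation 0.145), robust quasi-likelihood F tests, two-sided, and Benjamini-Hochberg adjustment at 0.05. The 24 h libraries entered the filter, the scaling and the estimate of spread. In fits with a covariate they also helped to set its slope. Medians and intervals (95%) are from this fit, and CPM use TMM-scaled library sizes. Library measures were compared by exact permutation of durations within treatments (160000 arrangements), which takes libraries of different treatments as independent. The test was also run on simulated counts. These were drawn independently for each library, so they cannot show how it behaves where same-numbered libraries deviate together.

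Totals of 610977 to 1231894 counts per library limit the precision of genes under 10 CPM, where the median standard error was 0.30, against 0.07 at 100 CPM and above. The members and the lists were chosen with earlier results of these data known. Genes were named by rule: the 5 higher and 5 lower with the smallest p, up to 2 per list with the smallest p, the 3 with the smallest p for differences between treatments, and a panel of 18 markers, 108 genes in all, of which those that the results turn on are printed. Alternatives were DESeq2 1.42.0, limma-voom 3.58.1, other filters, scalings, covariates and samples left out.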

Additional observations from a re-analysis of the deposited data

How the results depend on the processing

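In the averaged comparison the count past an adjusted p of 0.05 was 0 with DESeq2 size factors, a filter at 10 CPM, the 24 libraries alone, the library total as covariate, each treatment left out, and, chosen after seeing the data, without the pair of libraries that stood apart, with 130 and 170 min pairs summed, and with either Y-linked covariate. It was 9 with DESeq2's Wald test, 132 without a filter (115 of them among the 11462), 96 with voom quality weights (chosen after seeing the data), and 1 without replicate 1, 0 without replicate 2 and 59 without replicate 3 of every group. Leaving out each library gave 0 to 9, with 9 when 130 min 72 h replicate 3 was left out and 1 each for 170 min 48 h replicate 1 (Tspan15), 170 min 72 h replicate 1 (Zfp292) and 170 min 72 h replicate 3 (D630039A03Rik). The cause of these differences was not tested. All 10 leading genes were among the 132 and the 96, and 8 of them among the 9 of DESeq2. Within 130 min the count was 1 with DESeq2's Wald test, 67 without a filter, 2 without replicate 3, 0 to 7 over single libraries left out (7 when 130 min 72 h replicate 3 was left out, 2 when 170 min 72 h replicate 2 was, 1 each for 130 min 48 h replicate 1 and 170 min 72 h replicate 3), and 1 with either Y-linked covariate, D630039A03Rik at -1.15 or -1.16. Without a filter it was 30 within 170 min, 2 for pulses minus DMSO (Slc4a11 and Asah2) and 6 among the 4 treatments, and within 170 min, within DMSO and within 90 min leaving out single libraries gave 0 to 0. Replicate numbers did not pair 72 with 48 h samples (correlations of deviations -0.37 to 0.35). With a replicate block the averaged count was 0 (smallest adjusted p 0.114, 1491 genes unadjusted), and with the block within treatment 0 (0.0935, 1473). Same-numbered libraries of 170 and 130 min correlated at 0.24 to 0.56 at 72 h and 0.33 to 0.61 at 48 h, and those of 90 min and DMSO at 0.08 to 0.10 at 72 h and 0.18 to 0.50 at 48 h. Summing the 130 and 170 min pairs left 1098 genes unadjusted. Leaving out each library moved the difference in totals over -106826 to -44331 and that in the mitochondrial share over -0.0068 to 0.044, which turned its sign to -0.0068 without 130 min 72 h replicate 1 and to -0.0011 without DMSO 72 h replicate 1. Over up to 44 settings 98 of 108 named genes and 23 of 45 list medians kept their sign, among them all 10 leading genes and the enteroendocrine, fetal-like and p53 medians. These settings reuse the same libraries, and the leading genes were picked by small p in them, so a kept sign is not separate support.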

Other observations

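Gkn1, a gastrokine of surface mucous cells, had 0, 3.98 and 28.8 CPM (lowest, median, highest) at 72 h and 0, 1.70 and 3.72 CPM at 48 h (log2 1.82 ± 0.52 SE, edgeR adjusted p = 0.195). Gkn2, its relative, had 0, 5.37 and 125 CPM at 72 h and 0, 2.62 and 12.7 CPM at 48 h (log2 1.71 ± 0.64 SE, edgeR adjusted p = 0.310), and the 125 CPM came from the third replicate of 130 min. The list of gastric and Brunner gland genes had 2 of 8 tested genes higher at an unadjusted p under 0.05, and its median of 0.23 was 0.01 over 7 genes without the pair of libraries that stood apart. Fgf15, the ileal hormone that bile acids induce, had 1.37, 16.7 and 80.9 CPM at 72 h and 0, 5.45 and 22.6 CPM at 48 h (log2 1.62 ± 0.59 SE, edgeR adjusted p = 0.306). Fgf15 was above its treatment's 48 h mean in 11 of 12 libraries. The other ileal genes did not share this as a group. Of the 5 tested genes of the ileal identity list, Fgf15 among them, 2 lay above 0 and 3 below. The list median was -0.02 and changed sign in 17 of 44 other settings.

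BMP targets were split. Id1 had 110, 126 and 232 CPM at 72 h and 73.4, 91.1 and 178 CPM at 48 h (log2 0.44 ± 0.16 SE, edgeR adjusted p = 0.305), higher in 11 of 12 libraries than the 48 h mean of their treatment, while Id4 had 0, 4.97 and 12.8 CPM at 72 h and 2.51, 10.6 and 25.9 CPM at 48 h (log2 -1.34 ± 0.49 SE, edgeR adjusted p = 0.305), lower in 12 of 12. Cryab, a small heat shock protein, reached 96.9 CPM in the second replicate of 130 min at 72 h, with medians of 13.8 CPM at 72 h and 8.52 CPM at 48 h (log2 1.07 ± 0.38 SE, edgeR adjusted p = 0.299). Without the pair of libraries that stood apart, which had 96.9 and 41.1 CPM, its log2 change was 0.37, and without the second replicates of all groups 0.14.

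The following gene classes were chosen after seeing the values, and their counts stand beside 5.79% of all genes higher and 6.79% lower. Of 254 zinc finger genes named Zfp, 3 were higher and 48 lower at an unadjusted p under 0.05 (median -0.13), and of 509 long noncoding genes 15 were higher and 47 lower (median -0.09), with classes taken from GENCODE vM21 by symbol for 98.8% of tested genes. Reads of related Zfp genes can be shared. Of 78 cytosolic ribosomal protein genes 1 was higher and 0 lower (median 0.05).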
